A study of Mus musculus with 6 samples.

Results

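Translation initiation factor genes encode the proteins that bring the small ribosomal subunit, the initiator tRNA and the 5′ cap of a messenger RNA together at a start codon. The set held every entry whose symbol starts with Eif and a digit from 1 to 6, pseudogene symbols left out, which was 55 of the 23282 entries in each count file. Of these, 52 had enough counts to be tested, and 3 had no count in any library.

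In the textbook order of events, eIF2 carries the initiator tRNA to the small subunit together with eIF1, eIF1A, eIF3 and eIF5, and the cap-binding complex eIF4F (eIF4E, eIF4G and the helicase eIF4A) recruits the messenger RNA. eIF5B then joins the large subunit, and eIF2B reloads eIF2 with GTP. In T cells the main known controls are phosphorylation of eIF2 by stress kinases and sequestration of eIF4E by 4E-binding proteins under mTOR signalling.

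Regulatory T cells (Treg), which hold other immune cells in check, were isolated from the spleens of C57BL/6 mice by flow cytometry and were not stimulated. The design text names the aim as comparing the transcriptomes of wild type and IPMK-deficient Treg, where IPMK is inositol polyphosphate multikinase, an enzyme that adds phosphates to inositol phosphates. There were 3 wild type libraries and 3 libraries with the genotype IPMK cKO, which the sample titles call IPMK KO, all of total RNA and made with the Lexogen QuantSeq kit, whose reads come from the 3′ end of transcripts. The Cre driver, the deleted part of Ipmk and the age and sex of the mice were not given in the sources used here. The labels call the libraries biological replicates and do not mention separate animals, so a p-value here reflects only how these samples vary, which may be technical.

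Levels are CPM, counts scaled to a common library size after edgeR's TMM scaling, and per-library values follow the order of replicates 1, 2 and 3. Ipmk, the targeted gene, had 129, 77 and 99 counts in wild type and 3, 21 and 0 counts in IPMK cKO, so the groups did not overlap. Its level averaged 12.1 ± 2.95 CPM in wild type against 1.06 ± 1.48 CPM in the knockout (SD, n = 3 each), and edgeR's quasi-likelihood test gave a log2 fold change of -3.51 (SE 1.75) with an adjusted p of 0.9999. A 3′ tag checks a deletion only where the deletion removes that end or lowers the transcript. The Treg-defining gene Foxp3 stood at 10.3, 80.6 and 29.0 CPM in wild type and at 85.1, 71.99 and 82.3 CPM in IPMK cKO. The 9 Treg and T cell markers summed to 2966 to 3824 CPM in wild type and to 2838 to 3461 CPM in IPMK cKO. These markers did not move one way. Log2 fold changes were above 0 for 4, Foxp3 highest at 0.998, and below 0 for 5, Ikzf2 lowest at -0.45. Ikzf2 stood at 843, 1635 and 1172 CPM in wild type and at 794, 1168 and 713 CPM in IPMK cKO. Markers of other cells were low but present: the 2 CD8 T cell markers, all from Cd8b1, summed to 7.82 to 12.2 CPM in wild type and to 2.11 to 8.62 CPM in IPMK cKO. The 6 B cell markers summed to 9.43 to 26.2 and to 11.8 to 14.2 CPM, with Cd79b and Cd22 counted in every library, and the 7 erythroid markers to 0.120 to 60.7 and to 0 to 19.6 CPM. The defining markers Cd8a, Pax5 (B cells), Cd14 (myeloid cells) and Ncr1 and Klre1 (NK cells) had no count in any library. The 4 NK cell markers summed to 1.91 to 7.94 CPM in wild type and to 11.8 to 22.5 CPM in IPMK cKO, in IPMK cKO nearly all from Eomes. The 9 myeloid markers summed to 62.6 to 70.4 and to 14.4 to 89.8 CPM. Most of that sum was Cst3 in every library, at 48.5 to 70.3 CPM in wild type and 14.4 to 71.3 CPM in IPMK cKO. The part of these cells in the results was not tested, and in bulk RNA fewer cells of a type and less RNA per cell cannot be told apart.

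IPMK cKO replicate 1 stood apart from the other 5 libraries. In it, 24 of the 52 tested initiation factor genes (46.2%) departed over 2-fold from the other libraries' median, compared with 6 in each wild type library and 3 and 8 in IPMK cKO replicates 2 and 3. Over all genes the same share was 51.5% in IPMK cKO replicate 1 and 18.7% to 32.1% in the others. Of those 24 genes, 9 were above the other libraries and 15 below them. The genes far above included Eif3h, Eif3d, Eif2s2, Eif4e2 and Eif4a3, and those far below included Eif4ebp2, Eif2ak3, Eif2s1, Eif4g3 and Eif5a. The direction went with the base composition of the 3′ end: among the 26 genes whose last 500 transcript bases had a GC content at or above the median of 43.8%, 8 were more than 2-fold above and 5 more than 2-fold below, and among the 26 genes under it 1 was above and 10 were below. Across genes within this library the Spearman correlation of the departure with GC was 0.34 over the 52 genes and 0.20 over the 9680 genes of the whole table with a gene model. Other libraries had such correlations too: over the 52 genes they ran from -0.19 in IPMK cKO replicate 2 to 0.23 in wild type replicate 1, and over the whole table from -0.18 in IPMK cKO replicate 2 to 0.02. The genes share the library and are not replicates, and the part of GC in the results was not tested.

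**Figure D1:**
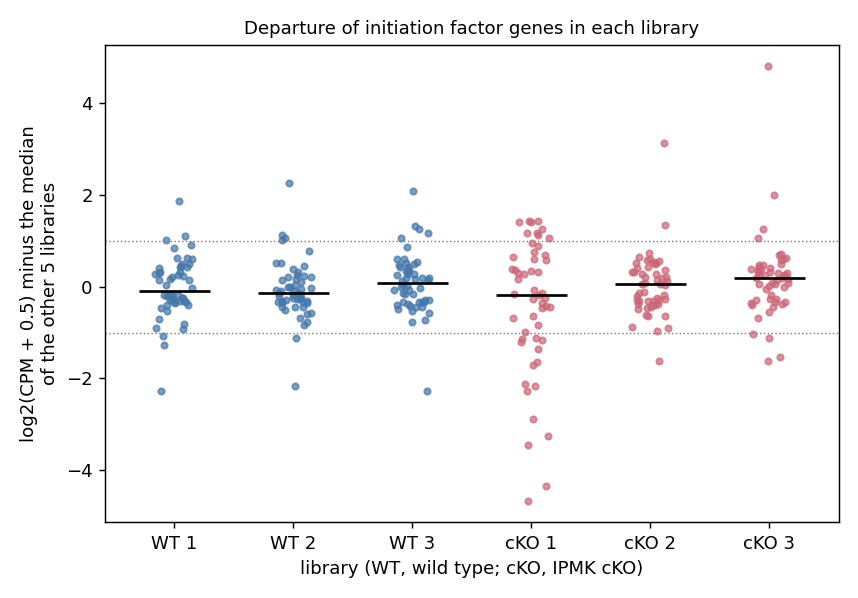
Each point is 1 of the 52 tested initiation factor genes in 1 library. The vertical axis is log2(CPM + 0.5) minus the median of the other 5 libraries, the black lines are library medians and the dotted lines mark a 2-fold departure. IPMK cKO replicate 1 has 24 genes outside the dotted lines and every other library has 3 to 8.

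Over the whole set, the part of the counts taken by initiation factor genes differed between the genotypes by less than the spread between libraries. Their summed counts were 0.965%, 0.858% and 0.920% of the counts outside the ribosomal RNA precursor Rn45s in wild type, against 0.890%, 0.911% and 0.946% in IPMK cKO, which gave 0.914% ± 0.0533 and 0.916% ± 0.0280 (SD, n = 3 each). The groups overlapped, and both the lowest and the highest value were wild type. Log2 fold changes of IPMK cKO over wild type lay above 0 for 28 genes and below 0 for 24, with a median of 0.10 (0.04 without IPMK cKO replicate 1), beside 5427 above, 5048 below and a median of 0.03 over all 10475 genes tested.

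No initiation factor gene was called in either direction. edgeR's quasi-likelihood test called 0 of the 52 genes and 0 of all 10475 genes (0%) at an adjusted p of 0.05, and the adjusted p of every initiation factor gene was 0.9999. limma-voom also called 0 of each (0%), while DESeq2 called 0 initiation factor genes and 3 of 10412 genes (0.0288%). At an unadjusted p under 0.05, edgeR had 1 initiation factor gene higher in IPMK cKO, Eif3d, and 0 lower, beside 143 higher (1.37%) and 125 lower (1.19%) over all genes. The 3 IPMK cKO libraries lay wholly above the 3 wild type libraries for 3 genes, Eif3d, Eif2ak1 and Eif3j2 (5.77% of 52, beside 4.74% of all genes), and wholly below them for 2, Eif2ak4 and Eif1b (3.85%, beside 5.66% of all genes). These shares are near the background. The SE of the log2 fold changes had a median of 0.421 over the initiation factor genes and 0.676 over all genes, and at this spread the log2 fold change of 1.02 of Eif3d did not pass the adjusted test. Without IPMK cKO replicate 1, the 2 groups did not overlap for 6 higher and 3 lower genes (11.5% and 5.77%), beside 9.70% and 10.1% of all genes.

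**Figure D2:**
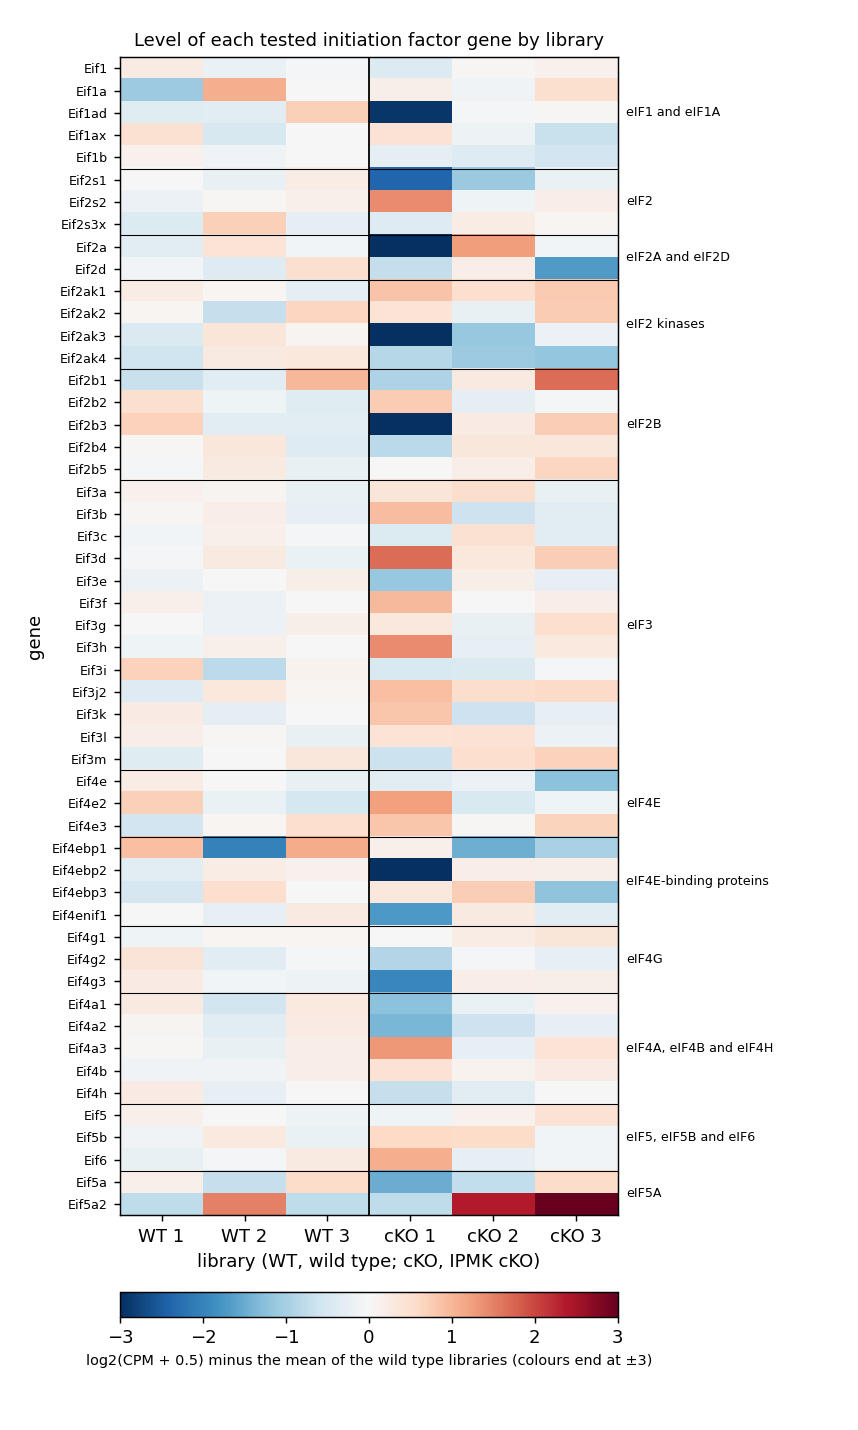
The heat map has 1 row per tested initiation factor gene, grouped by factor complex, and 1 column per library, and colour is log2(CPM + 0.5) minus the wild type mean, with the scale ending at ±3. The column of IPMK cKO replicate 1 holds the lowest values, of Eif2ak3 and Eif4ebp2, the highest is Eif5a2 in IPMK cKO replicate 3, and no complex has 1 sign in all 3 IPMK cKO columns throughout.

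The windows below give the sequence at annotated start sites of genes whose groups did not overlap, and of genes with a pyrimidine run there. Many messenger RNAs of the translation machinery begin with a run of C and T (U in the RNA), the 5′ terminal oligopyrimidine element through which mTOR controls their translation. Each window has 15 bases before and 15 bases from the start, is written 5′ to 3′ on the gene's strand and comes from RefSeq on GRCm38.p6, whose table held 43 of the 55 genes, Eif3j2 not among them. Capitals mark a run of at least 8 consecutive C or T that reaches within 5 bases of the start on either side, searched on the gene's strand only. The first 5 windows are those of the genes with groups that did not overlap, Eif2ak4 with 2 annotated starts.
Eif3d, chr15:77970810-77970839, minus strand: gtggtagggccatttacgacagcgctggtc
Eif2ak1, chr5:143817777-143817806, plus strand: tggggcgggacttccgttggctcttgtgtt
Eif2ak4, chr2:118388602-118388631, plus strand: gactcgaggccccgccctcagttcggtcac
Eif2ak4, chr2:118389097-118389126, plus strand: ttcgtccttccaaccaTTCTTCCCCacact
Eif1b, chr9:120492591-120492620, plus strand: gcggcgcgcggggctaaatacgcggcgccg

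The next 5 windows hold the longest runs among tested genes in the table, Eif4enif1, which ties with the last ones shown, left out.
Eif2b5, chr16:20498802-20498831, plus strand: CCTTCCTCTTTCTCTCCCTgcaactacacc
Eif2s3x, chrX:94212637-94212666, minus strand: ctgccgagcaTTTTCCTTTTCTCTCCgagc
Eif3f, chr7:108934400-108934429, plus strand: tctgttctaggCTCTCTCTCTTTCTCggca
Eif3l, chr15:79075208-79075237, plus strand: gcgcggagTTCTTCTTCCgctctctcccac
Eif4e, chr3:138527253-138527282, plus strand: tcgCCCCCCCTTCaggagcggttgtgcgat

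A run of this kind stood at or near at least 1 annotated start of 9 of the 43 genes (20.9%) and of 3068 of the 27025 genes in the table (11.4%). Such a run need not begin the RNA. Those of Eif4e and Eif4enif1 lie wholly before the start, and those of Eif2ak4, Eif2b2 and Eif2s3y begin only after the start base. The other annotated start of Eif4e has no such run. The run of Eif2b5 is 21 bases long and begins before the window. Of the 8 tested genes with a run, 4 had log2 fold changes above 0 and 4 below. Of the 4 genes in the table whose groups did not overlap, only Eif2ak4 had such a run, at 1 of its 2 starts. Against the gene starts of GENCODE, the start shown was 374 bases inside the gene for Eif1b, 211 for Eif2s3x and 1089 for Eif4e. The second start of Eif2ak4 was 494 bases inside, and the other starts shown lay within 44 bases. Which start these cells use was not tested. A match describes the sequence and not its use, and RNA levels do not measure translation.

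eIF1 and eIF1A keep the scanning ribosome open until the start codon is found. The group held 5 genes, Eif1, Eif1b, Eif1a, Eif1ax and, placed here only by its eIF1A domain, Eif1ad. All 5 were tested, and all 5 log2 fold changes were below 0, with a median of -0.12, but none was called and the pattern did not hold with each library left out. Eif1 was at 0.05 without wild type replicate 1 and 0.06 without IPMK cKO replicate 1, and the median was -0.35 without wild type replicate 1 and -0.34 without wild type replicate 2. Eif1a was highest in wild type replicate 2, at 42.5 CPM, and otherwise at 9.02 and 20.1 CPM in wild type against 18.4 to 27.9 CPM in IPMK cKO. Eif1ax was highest in wild type replicate 1, at 63.8 CPM, and otherwise at 32.9 and 46.7 CPM against 28.9 to 62.3 CPM. Together the 5 genes took 0.0716%, 0.0573% and 0.0645% of the counts outside Rn45s in wild type, against 0.0419%, 0.0569% and 0.0593% in IPMK cKO. Of the IPMK cKO libraries only replicate 3 reached the wild type range. Eif1b (ENSMUSG00000006941, chr9:120492232-120495330 on the plus strand of mm10), a close relative of Eif1, stood at 122, 104 and 111 CPM in wild type and at 92.2, 85.3 and 75.7 CPM in IPMK cKO. Each IPMK cKO library was below each wild type library, with means of 112 ± 9.52 and 84.4 ± 8.27 CPM (SD, n = 3 each) and a log2 fold change of -0.41 (SE 0.30, 95% interval -1.07 to 0.24). Eif1, which guards start codon choice, stood at 292, 214 and 239 CPM in wild type and at 184, 251 and 269 CPM in IPMK cKO. Its groups overlapped, with IPMK cKO replicate 1 the lowest and a log2 fold change of -0.08 (SE 0.28). Eif1ad, named for its eIF1A domain, was at 20.6 to 44.4 CPM in wild type, at 26.1 and 27.6 CPM in IPMK cKO replicates 2 and 3 and at 3.10 CPM in replicate 1.

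eIF2 has an alpha, a beta and a gamma subunit, and its genes parted in IPMK cKO replicate 1. Eif2s1, the alpha subunit that the stress kinases phosphorylate, stood at 50.3, 43.5 and 58.6 CPM in wild type and at 9.29, 23.1 and 43.6 CPM in IPMK cKO. Eif2s2, the beta subunit, stood at 238, 275 and 302 CPM in wild type and at 729, 249 and 312 CPM in IPMK cKO. For Eif2s1 the IPMK cKO libraries reached just into the wild type range, and for Eif2s2 replicates 2 and 3 lay close to wild type while replicate 1 lay far above. Log2 fold changes were -0.9998 (SE 0.57, 95% interval -2.26 to 0.26) for Eif2s1 and 0.66 (SE 0.39) for Eif2s2. Without IPMK cKO replicate 1 they were -0.61 and 0.04. The gamma subunit is encoded on both sex chromosomes in the mouse. Its X-linked gene, Eif2s3x, stood at 18.4, 40.7 and 19.9 CPM in wild type and at 18.6, 28.6 and 25.8 CPM in IPMK cKO, groups that overlapped. The Y-linked Eif2s3y had no count in any library, which allows up to 0.304 to 0.422 CPM per library (3 counts, counting error only), and the X-inactivation RNA Xist was at 621 to 912 CPM.

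The 4 eIF2 kinases each sense a different stress, and 2 of them were among the genes whose groups did not overlap, on opposite sides. Eif2ak1 (HRI, the haem-regulated kinase, ENSMUSG00000029613, chr5:143817788-143904251 on the plus strand) stood at 36.6, 32.7 and 25.8 CPM in wild type and at 57.3, 44.6 and 54.8 CPM in IPMK cKO. Every IPMK cKO library was higher, with means of 31.7 ± 5.46 and 52.2 ± 6.74 CPM (SD, n = 3 each). The log2 fold change was 0.72 (SE 0.42, 95% interval -0.19 to 1.64). Eif2ak4 (GCN2, the kinase of amino acid shortage, ENSMUSG00000005102, chr2:118388618-118475234 on the plus strand) stood at 13.6, 25.6 and 26.4 CPM in wild type and at 11.4, 9.54 and 9.13 CPM in IPMK cKO. Every IPMK cKO library was lower, though wild type replicate 1 lay near them, with means of 21.9 ± 7.17 and 10.02 ± 1.21 CPM and a log2 fold change of -1.12 (SE 0.71, 95% interval -2.69 to 0.44). With any 1 library left out, the estimates ran from 0.59 to 0.84 for Eif2ak1 and from -1.37 to -0.97 for Eif2ak4. Their signs were set by the groups not overlapping, so that they held is no further support. IPMK cKO replicate 1 departed by less than 2-fold from the median of the others in both genes. Eif2ak2 (PKR, which binds double-stranded RNA) stood at 21.8, 12.7 and 33.3 CPM in wild type and at 28.0, 18.0 and 36.1 CPM in IPMK cKO, groups that overlapped. Eif2ak3 (PERK, of the endoplasmic reticulum) was at 10.1, 17.8 and 14.6 CPM in wild type and at 0, 6.01 and 12.2 CPM in IPMK cKO, where 0 allows up to 0.422 CPM. Its groups overlapped through IPMK cKO replicate 3. Kinase counts summed to 0.0126% ± 0.00126 of the counts outside Rn45s in wild type, against 0.0124% ± 0.00272 in IPMK cKO (n = 3 each, SD).

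eIF2B, the exchange factor that phosphorylated eIF2 blocks, had all 5 of its subunit genes tested, 4 above 0 and 1 below, with a median log2 fold change of 0.18. Single libraries set that median, which was 0.42 without IPMK cKO replicate 1, -0.15 without IPMK cKO replicate 3 and 0.00328 without wild type replicate 3. Eif2b2 stood at 109, 71.9 and 60.5 CPM in wild type and at 133, 64.1 and 76.3 CPM in IPMK cKO. Eif2b5, the catalytic subunit, stood at 32.2, 40.2 and 28.2 CPM in wild type and at 33.6, 38.3 and 52.0 CPM in IPMK cKO. Both genes overlapped between the groups, with log2 fold changes of 0.18 (SE 0.39) and 0.30 (SE 0.44), and that of Eif2b2 was -0.21 without IPMK cKO replicate 1. Replicate 1 of IPMK cKO was the lowest library for Eif2b1, Eif2b3 and Eif2b4, and the share of counts taken by the complex averaged 0.0226% ± 0.00403 in wild type against 0.0238% ± 0.00396 in IPMK cKO. Eif2a and Eif2d encode factors outside the eIF2 complex that can bring initiator tRNA to the ribosome without it. Eif2a was at 12.5, 21.5 and 14.98 CPM in wild type and at 1.13, 38.4 and 14.9 CPM in IPMK cKO, with the lowest and the highest library both in IPMK cKO. Eif2d was at 12.6, 9.98 and 18.6 CPM in wild type and at 7.88, 15.3 and 3.75 CPM in IPMK cKO, and its groups overlapped as well.

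eIF3, the scaffold that holds the small subunit, the other factors and the messenger RNA, was the largest complex, with 13 of its 14 genes tested. Log2 fold changes were above 0 for 10 and below 0 for 3, with a median of 0.24, and none was called. The complex took 0.354%, 0.334% and 0.324% of the counts outside Rn45s in wild type, against 0.423%, 0.368% and 0.337% in IPMK cKO, or 0.337% ± 0.0156 and 0.376% ± 0.0435 (SD, n = 3 each). IPMK cKO replicates 1 and 2 lay above every wild type library and replicate 3 lay within their range. IPMK cKO replicate 1 was the highest library for 6 of the 13 genes, and without it the median was 0.10.

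Eif3d (ENSMUSG00000016554, chr15:77958998-77970813 on the minus strand), a subunit that can itself bind the cap of some messenger RNAs, stood at 81.2, 102 and 74.1 CPM in wild type and at 275, 107 and 142 CPM in IPMK cKO. All 3 IPMK cKO libraries were higher, replicate 2 by a narrow margin and replicate 1 by the widest. Means were 85.8 ± 14.6 and 174 ± 88.6 CPM (SD, n = 3 each), with a log2 fold change of 1.02 (SE 0.38, 95% interval 0.18 to 1.87) and an unadjusted p of 0.0223 that edgeR's adjustment over all genes took to 0.9999. The log2 fold change was 0.53 without IPMK cKO replicate 1. Eif3j2, a copy of the loosely bound j subunit on chromosome 18, stood at 26.5, 42.9 and 36.2 CPM in wild type and at 65.3, 49.6 and 51.7 CPM in IPMK cKO. Every IPMK cKO library was higher, and the log2 fold change was 0.66 (SE 0.41, 95% interval -0.25 to 1.56). Its 3′ end has a near-identical match in a transcript of Eif3j1, which was listed at 0 in all 6 libraries. The end of the main Eif3j1 transcript had no such match in another gene. How far reads of the 2 genes can be told apart is therefore uncertain. Eif3a, the largest subunit and a core of the scaffold, stood at 773, 753 and 612 CPM in wild type and at 911, 1014 and 612 CPM in IPMK cKO. The groups overlapped at replicate 3, and the log2 fold change was 0.25 (SE 0.28). Eif3h stood at 293, 353 and 317 CPM in wild type and at 854, 269.5 and 389 CPM in IPMK cKO. Its log2 fold change of 0.65 (SE 0.39) came to 0.03 without IPMK cKO replicate 1, and its 3′ end has a near-identical copy in another gene, so its count is uncertain. The 3 subunit genes below 0 were Eif3c, Eif3e and Eif3i, at -0.05, -0.31 and -0.42.

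**Figure D3:**
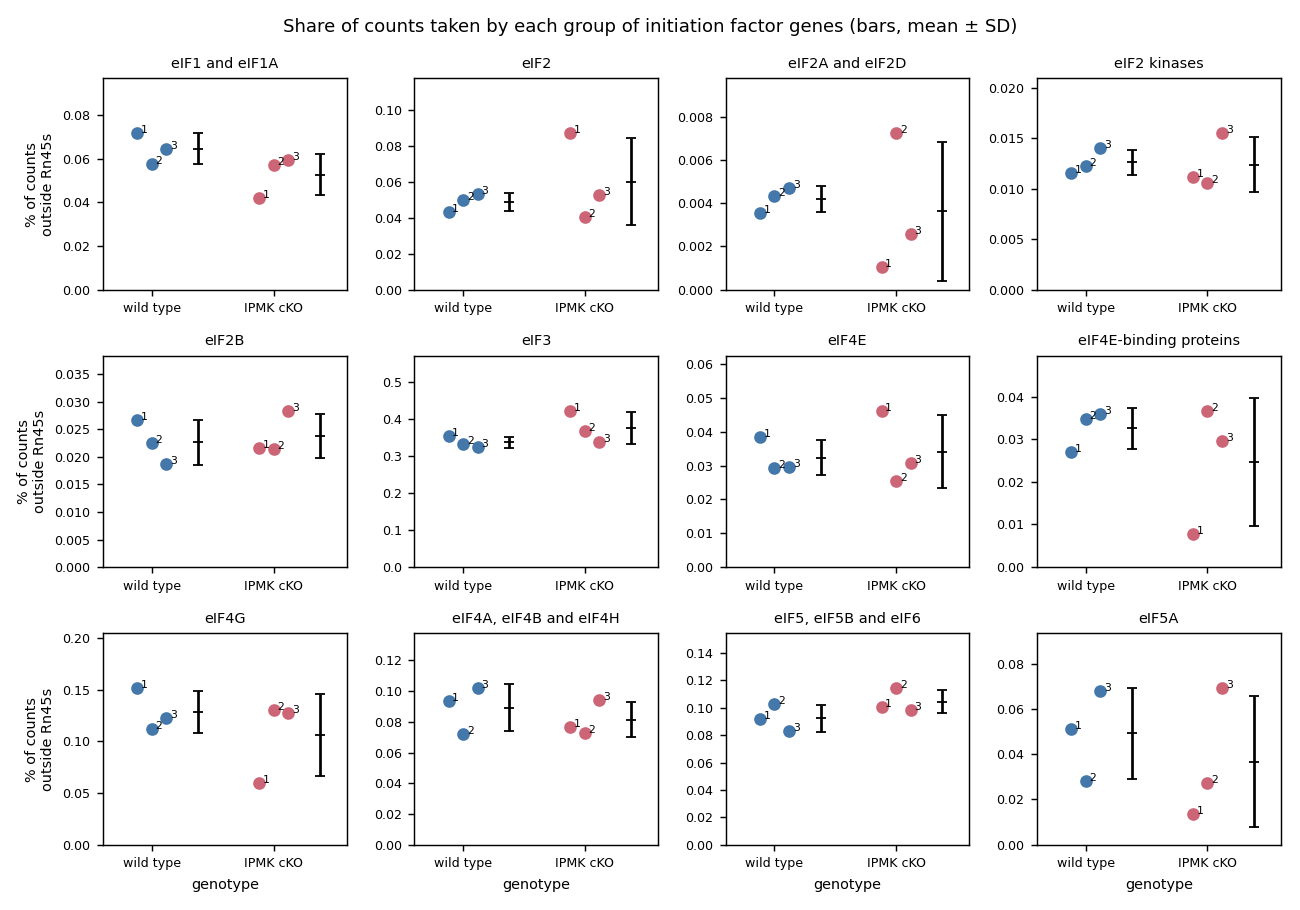
The plot gives, for each factor complex, the summed counts of its genes as a percentage of the counts outside Rn45s, with 1 numbered dot per library and the mean ± SD of each genotype. eIF3 has IPMK cKO replicates 1 and 2 above all wild type libraries, at 0.423% and 0.368%, while eIF4G and the eIF4E-binding proteins have IPMK cKO replicate 1 far below, at 0.0600% and 0.00786%.

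The eIF4E family binds the cap, and 3 of its 4 genes were tested, the fourth, Eif4e1b, having no count in any library. Eif4e, the main cap-binding protein, stood at 59.9, 51.5 and 44.2 CPM in wild type and at 41.1, 45.3 and 21.8 CPM in IPMK cKO. Its groups overlapped only where IPMK cKO replicate 2 passed wild type replicate 3, and the log2 fold change was -0.52 (SE 0.44). Eif4e2, a cap-binding protein that represses translation, stood at 167, 88.0 and 69.9 CPM in wild type and at 239, 73.4 and 91.7 CPM in IPMK cKO. Eif4e3 stood at 45.8, 71.6 and 96.9 CPM in wild type and at 122, 69.9 and 109 CPM in IPMK cKO. Both of these had their highest value in IPMK cKO replicate 1, and the median of the family, 0.31, was -0.40 without it.

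The eIF4E-binding proteins hold eIF4E away from eIF4G. Eif4ebp2 stood at 114, 169 and 158 CPM in wild type and at 7.60, 166 and 165 CPM in IPMK cKO. IPMK cKO replicates 2 and 3 were within the wild type range and replicate 1 was far under it, the widest departure downward of any initiation factor gene with a count in every library. Eif4enif1, which carries eIF4E to the nucleus, stood at 41.3, 34.8 and 49.9 CPM in wild type and at 12.2, 50.2 and 32.7 CPM in IPMK cKO. Eif4ebp1, an mTOR target, stood at 13.6, 1.37 and 15.9 CPM in wild type and at 7.88, 2.22 and 3.35 CPM in IPMK cKO, so its spread within wild type exceeded the difference between the means. The log2 fold changes of these genes were -0.38 (SE 0.75), -0.41 (SE 0.55) and -1.20 (SE 1.34), and without IPMK cKO replicate 1 they were 0.17, -0.03 and -1.89. The median of the 4 genes, -0.39, was -0.02 without IPMK cKO replicate 1.

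eIF4G is the scaffold between the cap and eIF3. Eif4g1 stood at 193, 221 and 221 CPM in wild type and at 211, 246 and 269.8 CPM in IPMK cKO. Eif4g2 (DAP5), which lacks the eIF4E-binding part, stood at 607, 368 and 444 CPM in wild type and at 250.2, 454 and 391 CPM in IPMK cKO. Eif4g3 stood at 274, 219 and 208 CPM in wild type and at 59.7, 264 and 263 CPM in IPMK cKO. All 3 genes overlapped between the groups, and Eif4g1 was the one for which IPMK cKO replicate 1 was not the lowest library. Their log2 fold changes were 0.20 (SE 0.26), -0.37 (SE 0.31) and -0.26 (SE 0.47), with a median of -0.26 that was 0.17 without IPMK cKO replicate 1, where Eif4g2 was at -0.17.

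eIF4A unwinds the 5′ leader, helped by eIF4B and eIF4H. Eif4a2 (ENSMUSG00000022884, chr16:23107444-23114136 on the plus strand) stood at 162, 121 and 183 CPM in wild type and at 59.2, 98.8 and 129 CPM in IPMK cKO. IPMK cKO replicate 3 alone reached the wild type range, and the log2 fold change was -0.70 (SE 0.35, 95% interval -1.48 to 0.08). It ranged from -0.97 to -0.45 with 1 library left out. Eif4a1, the other cytoplasmic helicase, was at 67.2 to 122 CPM in wild type and at 42.1, 87.1 and 109 CPM in IPMK cKO. Eif4a3, the helicase of the exon junction complex, stood at 111, 92.8 and 126 CPM in wild type and at 268, 92.1 and 145 CPM in IPMK cKO. IPMK cKO replicate 1 was again the highest for Eif4a3 and the lowest for Eif4a1, and the 3′ end of Eif4a3 has near-identical copies in other genes. Eif4b stood at 167, 165 and 207 CPM in wild type and at 243, 191 and 212 CPM in IPMK cKO, with a log2 fold change of 0.26 (SE 0.27), or 0.16 without IPMK cKO replicate 1, and groups that overlapped.

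The late factors all had log2 fold changes above 0, which were 0.16 (SE 0.27) for Eif5, 0.37 (SE 0.29) for Eif5b and 0.37 (SE 0.48) for Eif6. Without IPMK cKO replicate 1, Eif5 was at 0.28 and Eif5b at 0.24. Eif6 stood at 33.4, 37.9 and 47.5 CPM in wild type and at 84.0, 32.8 and 36.7 CPM in IPMK cKO. For Eif6, only IPMK cKO replicate 1 lay above the wild type range, and replicate 2 lay just below it. Eif5, which triggers GTP hydrolysis on eIF2, stood at 269, 244 and 219 CPM in wild type and at 222, 267 and 327 CPM in IPMK cKO. Eif5b, which joins the subunits, stood at 348, 460.3 and 327 CPM in wild type and at 566, 549 and 351 CPM in IPMK cKO. Both overlapped, with IPMK cKO replicates 1 and 2 inside the wild type range for Eif5 and replicate 3 inside it for Eif5b. The 3 genes took 0.0917%, 0.103% and 0.0830% of the counts outside Rn45s in wild type, against 0.1004%, 0.114% and 0.0987% in IPMK cKO. eIF5A, which despite its name acts mainly in elongation and termination, came mostly from Eif5a, at 364, 203 and 487 CPM in wild type and at 117, 199 and 487 CPM in IPMK cKO. Both groups reached the same highest level, and IPMK cKO replicate 1 was the lowest library. Its relative Eif5a2 had 0, 14 and 0 counts in wild type and 0, 30 and 133 counts in IPMK cKO, and the log2 fold change of 3.17 (SE 2.60) rested on few counts in 3 of 6 libraries.

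**Figure D4:**
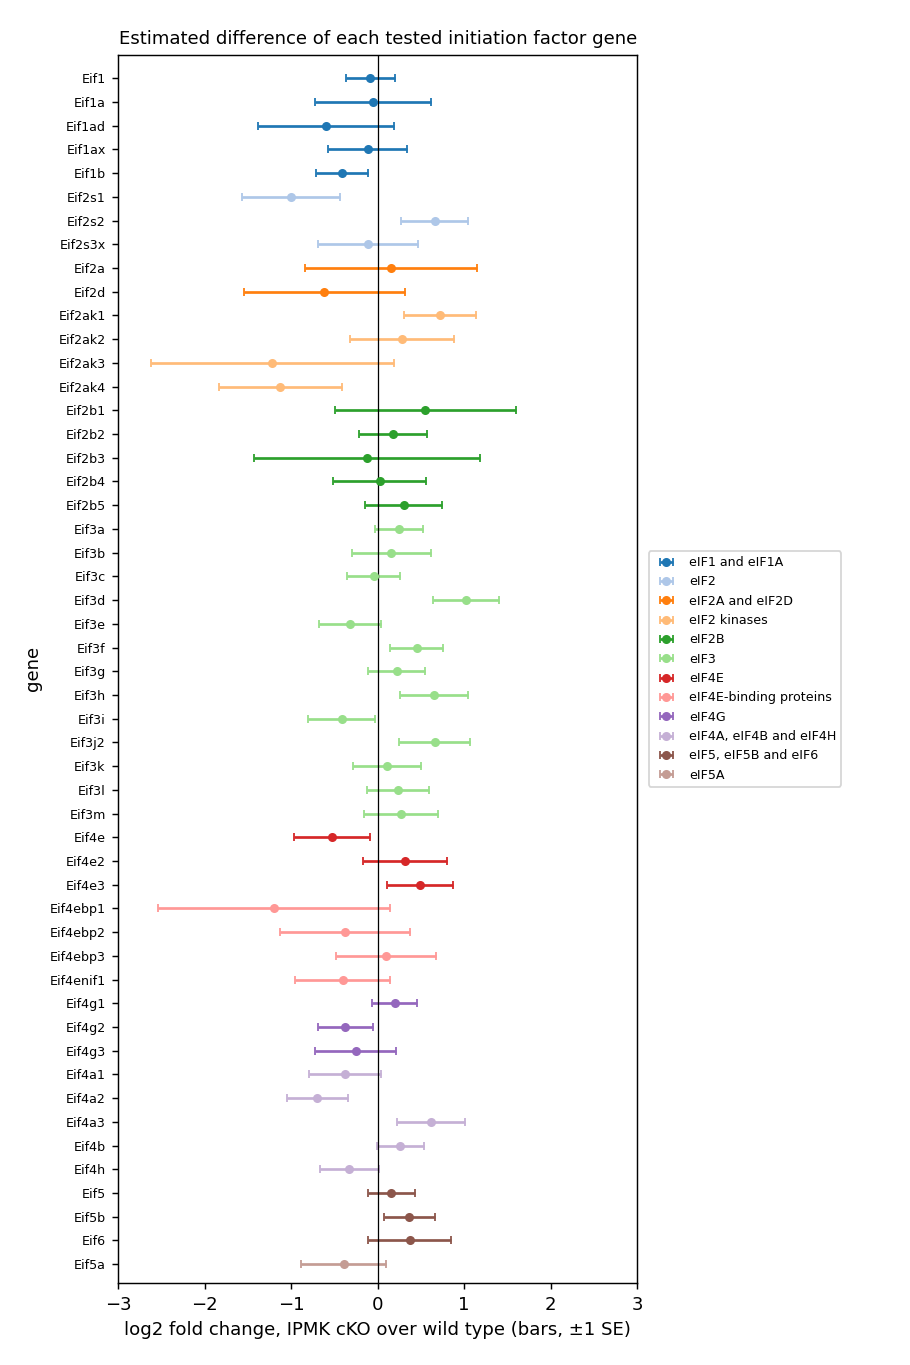
Points are log2 fold changes of IPMK cKO over wild type for the tested genes of each complex, with bars of ±1 SE from edgeR, and the line at 0 marks no difference. Eif5a2, at 3.17 (SE 2.60), is not drawn. The 5 genes grouped as eIF1 and eIF1A lie below 0 with all libraries used. Not all stay there with 1 library left out, Eif1 being 1 such gene, without wild type replicate 1 or IPMK cKO replicate 1. Of the 13 genes of eIF3, 10 lie above 0, and no gene passed the adjusted threshold.

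Paralogue shares compare 2 genes within a library and so do not depend on the library scaling. They were computed for 7 pairs, of which 6 could be tested. Eif4a1 made up 42.6%, 35.8% and 40.1% of Eif4a1 and Eif4a2 together in wild type, against 41.5%, 46.9% and 45.8% in IPMK cKO. The mean was 39.5% ± 3.43 in wild type against 44.7% ± 2.83 in IPMK cKO (SD over 3 libraries; two-sided exact permutation test, p = 0.2, 0.6 after Benjamini-Hochberg adjustment). Eif4g1 made up 24.2%, 37.4% and 33.2% of Eif4g1 and Eif4g2 in wild type, against 45.8%, 35.1% and 40.9% in IPMK cKO (exact permutation p = 0.2, adjusted 0.6). In both pairs only 1 library of a group crossed into the other group's range. Eif1 made up 68.7% ± 1.59 of Eif1 and Eif1b in wild type against 73.1% ± 5.85 in IPMK cKO (SD over 3 libraries; exact permutation p = 0.4, adjusted 0.6). The Eif4ebp1 share of Eif4ebp1 and Eif4ebp2 was 0.802% to 10.6% in wild type, 1.32% and 1.99% in IPMK cKO replicates 2 and 3, and 50.9% in replicate 1. The smallest p that 3 against 3 libraries allow is 0.1, and no pair reached it.

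Partners and regulators of initiation outside the Eif symbols gave a like picture. Of 33 such genes in the files, 32 were tested by edgeR's quasi-likelihood test, 0 were called by it, by DESeq2 or by limma-voom, and 1 had an unadjusted p under 0.05. Log2 fold changes were above 0 for 18 and below 0 for 14, with a median of 0.05 that was 0.16 without IPMK cKO replicate 1. The groups did not overlap for 2 higher (Paip2b and Gcn1l1) and 2 lower genes (Dap and Paip1) of the 32, a share near the 4.74% and 5.66% of all genes. Dap, a small mTOR substrate, stood at 82.2, 56.0 and 69.8 CPM in wild type and at 28.3, 23.5 and 52.6 CPM in IPMK cKO. Paip1, a protein that joins the poly(A)-binding protein to eIF4A and eIF3, stood at 72.6, 58.5 and 57.2 CPM in wild type and at 23.9, 47.0 and 31.1 CPM in IPMK cKO. For both, every IPMK cKO library was below every wild type library, with log2 fold changes of -0.99 (SE 0.43) and -0.88 (SE 0.42). Dhx29, a helicase for structured leaders, stood at 12.2, 23.0 and 9.57 CPM in wild type and at 61.9, 31.1 and 18.0 CPM in IPMK cKO, and Gigyf2, a partner of Eif4e2, at 114, 155 and 77.2 CPM and at 236, 194 and 128 CPM. Both overlapped between the groups, with log2 fold changes of 1.31 (SE 0.66) and 0.69 (SE 0.36).

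Elongation and termination factors had 12 of 14 genes tested, with 8 log2 fold changes above 0, 4 below and a median of 0.30. None was called by edgeR's quasi-likelihood test, DESeq2 or limma-voom, none had an unadjusted p under 0.05 in edgeR, and in none did the groups fail to overlap. IPMK cKO replicate 1 was the highest library for 7 of the 12, and without it the median was 0.00333. Eef2, the translocase, stood at 1545, 1445 and 1718 CPM in wild type and at 3043, 1403 and 1730.0 CPM in IPMK cKO. Eef1g, a subunit of the exchange factor that recharges eEF1A, stood at 220.3, 203 and 210 CPM in wild type and at 426, 269 and 203 CPM in IPMK cKO. In both, IPMK cKO replicate 1 was the highest of the 6 libraries. Eef1d, of the same exchange factor, and Pelo, which rescues stalled ribosomes, also had their highest value there, at 394 and 58.3 CPM. These genes were taken by smallest p, and the list did not move one way in that library: Eef1a1, which brings charged tRNA to the ribosome, stood at 1671, 1418 and 1656 CPM in wild type and at 379.9, 1816 and 1753 CPM in IPMK cKO, lowest in replicate 1.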

How the data were processed

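Total RNA was extracted with Trizol and libraries were made with a Lexogen QuantSeq kit, as the labels' protocols say. Deposited files hold raw counts per gene symbol, per the file headers and values. Bowtie2, edgeR, mm10 and hg19 are named, per the submitters' processing notes, with neither role nor version. The counting program, annotation and strand setting were not given in the sources used here; overlapping and antisense genes cannot be told apart. Depth was 7464546 to 8980395 counts per library, 5287300 to 7130660 outside Rn45s.

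In R 4.3.3, edgeR 4.0.16 (TMM, filterByExpr with a minimum of 10 counts, which kept 10475 of 14404 genes with a count, glmQLFit and glmQLFTest, Benjamini-Hochberg over all genes tested, threshold 0.05) compared IPMK cKO with wild type. The SE is the log2 fold change over the square root of F, and the procedure was tested on simulated data. Alternatives were DESeq2 1.42.0, limma-voom (limma 3.58.1), other size factors and filters, removal of Rn45s, a replicate block and libraries left out. Overlap counts without IPMK cKO replicate 1, or without both libraries numbered 1, were added after seeing the data.

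Named genes were, per complex, the 2 with the highest mean CPM and the one with the smallest p, all whose groups did not overlap, and the 4 with the smallest p per partner list; Eif1ad, Eif2s3x, Eif2ak3, Eif4e, Eif4g3, Eif4a1, Eif6, Eef1a1 and any other gene given were named after their values were seen. Members and lists were chosen with earlier results of these data known. Coordinates are from GENCODE M21 (mm10). Near-identical copies of 3′ ends were found with BLAST 2.17.0 as matches of at least 95% over 100 bases in the last 300. A match could lie anywhere in a transcript of another gene. Intervals of 95% are from the same fit, and a count of 0 was given a limit of 3 counts, which covers counting error only.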

Additional observations from a re-analysis of the deposited data

How the results depend on the processing

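No initiation factor, partner or elongation gene was called under any alternative tried. Over all genes, DESeq2 called 3, leaving out both libraries numbered 1 gave 1, and leaving out 1 library gave 0 to 1 (1 without IPMK cKO replicate 1). The initiation factor median of 0.10 was 8.16e-05 with limma-voom and -0.026 with the replicate block, and -0.0246 to 0.132 with 1 library left out, lowest without IPMK cKO replicate 2. The elongation factor median of 0.30 was 0.015 without both libraries numbered 1 and 0.00333 to 0.476 with 1 library left out, lowest without IPMK cKO replicate 1. Without both libraries numbered 1, 4 genes whose main estimate exceeded its SE changed sign. Among them were Eif2s2, Eif3h and Eif4g2, which went to -0.0416, -0.0242 and 0.057. In the same setting the groups did not overlap for 10 higher and 5 lower initiation factor genes (19.2% and 9.62% of 52, beside 14.8% and 16.9% of all genes). Without IPMK cKO replicate 1 alone these counts were 6 and 3. The difference in the summed share, 0.00155 percentage points, was -0.0418 as a share of all counts. With 1 library left out, the difference in the Eif1a share of Eif1a and Eif1ax ran from -7.68 to 14.3 percentage points and that of Eif4ebp1 from -5.21 to 19.6, reversing without IPMK cKO replicate 1. Against the main estimates, 0 to 14 of the 52 genes changed sign, 14 without both libraries numbered 1. Causes were not tested.

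The replicate numbers are shared by the groups, but deviations of same-numbered libraries correlated by only 0.045, 0.088 and 0.027, so the numbers were not taken as pairs, although each library correlated best with its own number. The replicate block gave 0 calls, 25 initiation factor genes above 0 and 27 below. Upper quartile scaling moved the median of all genes from 0.03 to -0.02 and left 27 of 52 above 0.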
